A study of Arabidopsis thaliana with 24 samples.

Results

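Shoots of Arabidopsis thaliana plants that had spent 24 h at 4 °C were compared with shoots that had spent 0.5 h or 1 h at 4 °C. The comparison rests on 6 of the 24 arrays of the series, taken by tissue and time from the sample titles, with 2 arrays at 24 h, 2 at 0.5 h and 2 at 1 h. All plants were wild type of the ecotype Col-0, with no transgene or mutation named. They were raised on Murashige and Skoog medium at 24 °C and 50% humidity under 16 h of light a day, and on day 16, when the lights had been on for 3 h, their boxes went onto ice in a cold room with an added lamp. Total RNA was read on ATH1 arrays, which carry 22810 sets of short probes. The 24 h sampling fell 3 h after the hour of lights-on and the early samplings 3.5 h and 4 h after it, so the groups lie close together in clock time. No untreated group was among the samples, and the early plants were already in the cold. The sources used here do not give the day length in the cold room or the light level before the move. A day of cold and a day of age cannot be told apart in this comparison.

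Plants that survive frost prepare for it during days of chilling, a process called cold acclimation. Within hours, C-repeat binding factors (CBFs) switch on cold-regulated genes, whose products include dehydrins and other late embryogenesis abundant (LEA) proteins that protect membranes and enzymes as water is withdrawn. Over the same day leaves change their sugar and starch metabolism, slow their growth and adjust photosynthesis to the lower speed of enzymes in the cold. The CBF genes themselves were not analysed here.

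The 6 arrays were of unequal make-up in ways the groups follow in part. Median intensity was 29.8 and 30.3 at 24 h, against 37.6 and 38.6 at 0.5 h and 34.9 and 39.7 at 1 h. An intensity of at least 30 was reached by 11343 and 11418 probe sets at 24 h and by 12070 to 12724 on the early arrays. The control probe set for 25S ribosomal RNA read 889 and 1420 at 24 h, 212 and 246 at 0.5 h, and 1862 and 1766 at 1 h. The 3′ control for glyceraldehyde-3-phosphate dehydrogenase read 309 on 1 h replicate 1 and 975 to 1154 on the other 5 arrays. Replicates correlated across probe sets with r of 0.987 at 24 h, 0.988 at 0.5 h and 0.971 at 1 h. Whether replicates were grown separately is not stated in the labels, and the spread that the p-values rest on may be technical. Of 8 markers of green tissue 4 were measured, and their summed intensity was 12892 to 14178 at 24 h and 16553 to 21583 early. Rubisco activase (RCA) read 5180 and 5329 at 24 h and 4635 to 5812 early, and of the 4 only LHCB4.2 passed the test (lower). Of 12 root markers 4 were measured, and their summed intensity was 432 to 467 at 24 h and 590 to 805 early, nearly all of it PYK10. PYK10 passed the test as lower at 24 h (−0.61 ± 0.15, limma adjusted p = 0.0038). The other 3, OSM34, EXPA7 and EXPA18, stayed under 23 on every array. The meristem marker CLV3 was at most 2.03, and a change in the share of a cell type cannot be told apart from a change in RNA per cell in such samples.

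A large share of the shoot's transcripts differed after 24 h in the cold. Of 22746 probe sets tested, 3217 (14.1%) were higher and 5991 (26.3%) lower at 24 h, where a call needed an adjusted p under 0.05 and both 24 h arrays beyond all 4 early arrays. The adjusted p alone was passed by 9833 probe sets (43.2%), and 11658 (51.3%) had both 24 h arrays outside the early range whatever their p. Most changes were small, with a median log2 change of 0.92 among those higher and −0.78 among those lower. From 4-fold upwards the higher ones were more numerous. At 2-fold or more there were 1443 higher (6.34%) and 1980 lower (8.7%), at 4-fold or more 504 higher (2.22%) and 381 lower (1.68%), and at 16-fold or more 100 higher (0.44%) and 23 lower (0.101%). Between the early times, 1 h against 0.5 h, 268 probe sets were higher (1.18%) and 137 lower (0.602%) by the adjusted p alone. Of the 9208 probe sets called (40.5%), 1129 stayed under an intensity of 30 on all 6 arrays.

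The balance between higher and lower depended on how the arrays were scaled. As deposited, 34.9% of the calls were higher, and the median log2 change over all probe sets was −0.14. With each array centred on its median, 5161 were higher and 3578 lower (59.1% higher) and the median change was 0.11. After quantile normalization 3979 were higher and 4618 lower (46.3% higher), with a median change of −0.03. The lower median intensity of the 24 h arrays moved together with this split, and its part in it was not tested. Changes are therefore read below against the median of −0.14, and where a list's count under median centring differs from its count as deposited, it stands in parentheses. A list's counts are to be read against the shares of all probe sets, 14.1% higher and 26.3% lower.

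**Figure D1:**
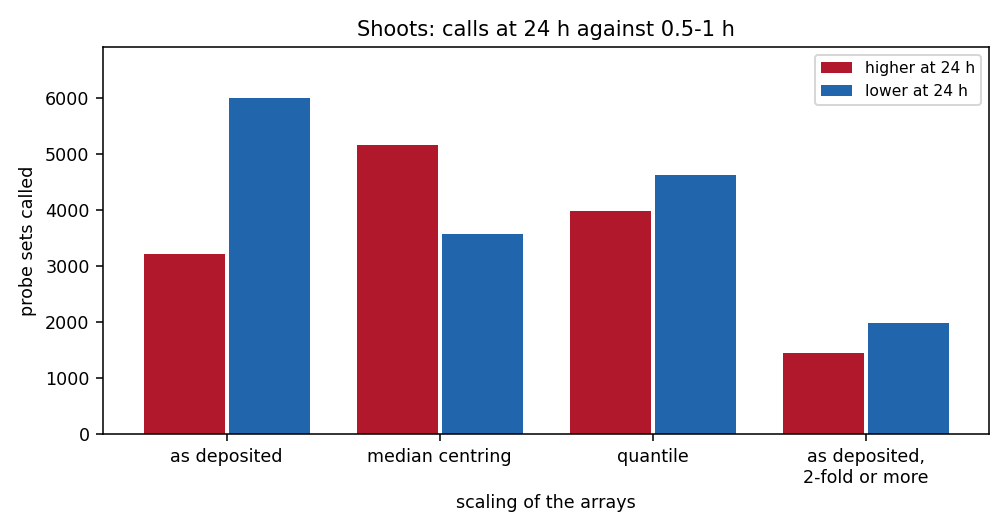
Number of probe sets called higher (left bars) and lower (right bars) at 24 h than at 0.5 h and 1 h in shoots, for 3 scalings of the arrays and, as deposited, for changes of 2-fold or more. The lower calls outnumber the higher ones as deposited (5991 and 3217), and the order turns under median centring (3578 and 5161).

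Among named genes, those of freezing protection included some of the largest rises. LTI30, which encodes a dehydrin, a protein that stays unfolded and coats membranes, had intensities of 8262 and 8331 at 24 h, against 12.3 and 27.4 at 0.5 h and 15.3 and 24.5 at 1 h. Both 24 h arrays lay far above all early ones, and the log2 change was 8.15 ± 0.19 (SE from the limma fit, adjusted p = 3.3e-14, Benjamini-Hochberg over all probe sets). Changes are on the scale of log2(intensity + 10), which understates the change of dim genes. LEA4-5, a small LEA protein of group 4, had 3434 and 3531 at 24 h, against 1.71, 3.12, 2.21 and 7.40 on the early arrays (8.02 ± 0.25, adjusted p = 3.9e-13). COR15A, a stromal protein that shields chloroplast membranes in freezing, had 7066 and 7515 at 24 h, 36.5 and 44.1 at 0.5 h, and 42.6 and 66.2 at 1 h. It rose by 7.02 ± 0.35 (adjusted p = 9.9e-11). Its close relative COR15B had 4071 and 4154 at 24 h, against 21.2 to 53.9 early, and rose by 6.62 ± 0.26 (adjusted p = 5.8e-12). COR47, another dehydrin, had 8489 and 8957 at 24 h, against 196 and 168 at 0.5 h and 492 and 325 at 1 h (4.96 ± 0.22, adjusted p = 2.5e-11). For COR47 the 1 h arrays already stood above the 0.5 h arrays, by 1.10 (adjusted p = 0.044). COR27, a cold-regulated gene tied to the circadian clock, had 1330 and 1094 at 24 h and at most 1.89 on any early array (6.80 ± 0.17, adjusted p = 3.5e-14).

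Among the 15 genes with the highest change, 9 are known in the annotation by locus only. Their values were as large. AT1G16850 had 3380 and 2525 at 24 h and 1.67 to 2.67 on the early arrays, a rise of 7.90 ± 0.19 (adjusted p = 3.5e-14). AT1G51090 had 2807 and 2570 at 24 h and 2.03 to 10.6 early (7.41 ± 0.22), and AT1G11210 had 1943 and 1608 at 24 h and 1.72 to 9.63 early (6.95 ± 0.19). AT5G62360 had 2586 and 1965 at 24 h, and it had begun to move within the early hour, with 38.7 and 22 at 1 h against 3.55 and 3.08 at 0.5 h. Its change of 6.63 ± 0.27 is set against the mean of both early times. The other locus-only genes of this rank, AT3G04010, AT4G30650, AT1G20030, AT1G80130 and AT1G64890, rose by 5.69 to 6.10. PUB19, the U-box ubiquitin ligase that completes the 15 and marks proteins for destruction, had 2434 and 2490 at 24 h and 16.5 to 36.1 early, a rise of 5.96 ± 0.28 (adjusted p = 4.5e-11).

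**Figure D2:**
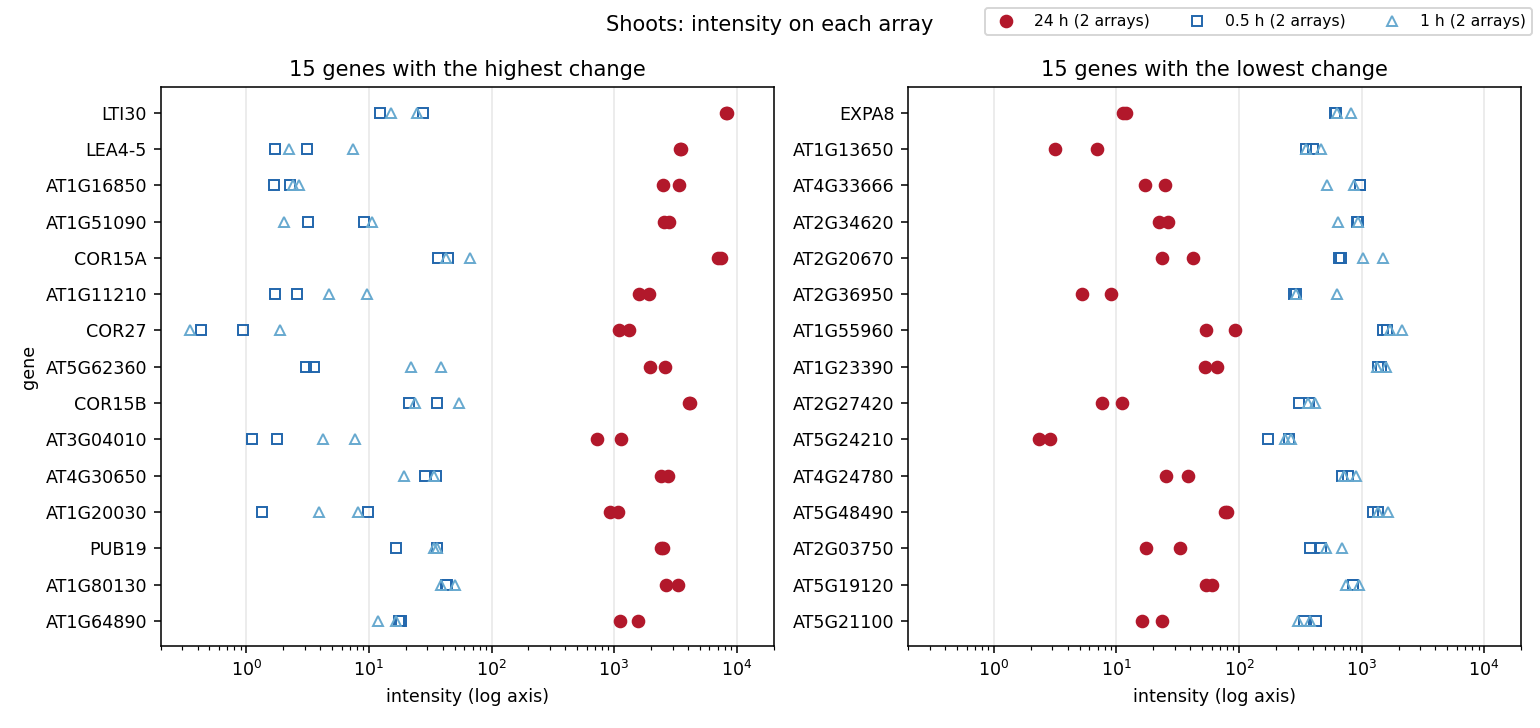
Intensity (log axis) on each of the 6 shoot arrays for the 15 genes with the highest (left panel) and the 15 with the lowest (right panel) log2 change; filled circles are the 24 h arrays, open squares 0.5 h and open triangles 1 h. The rule for a call places the 24 h arrays beyond the early arrays in every row. Mean intensities at 24 h are 934 to 8297 in the left panel and 2.61 to 78.6 in the right.

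The cold-regulated genes had a higher median than any other list examined, but the lists were chosen with earlier results of these data known. LTI30, COR15A, COR15B and COR27 of this list are also among the 15 genes ranked highest above, so its median is not separate evidence. A list member counts as measured where the annotation pairs it alone with a probe set. All 6 measured members of 19 cold-regulated genes were higher, with a median log2 change of 6.71 against −0.14 over all probe sets. The sixth member, AT4G33980, had 337 and 250 at 24 h and at most 3.9 early (4.65 ± 0.15, adjusted p = 5.4e-13). LEA proteins were less uniform: of 8 measured, 5 were higher and 1 lower, with a median of 1.48. The LEA members that rose with LEA4-5 were AT3G17520 (275 and 287 at 24 h, 0.577 to 2.67 early), DI21, a gene named for its induction by drought (2000 and 2145 at 24 h, 61.0 to 95.0 early), AtLEA4-1 and AT3G15670. DI21 rose by 4.56 ± 0.12 (adjusted p = 4.9e-14) and AtLEA4-1 by 2.39 ± 0.24, while AT3G15670 stayed under 9 on every array. AT2G46140, with 29.2 and 16.9 at 24 h and 29.7 to 41.4 early, fell by 0.48 ± 0.14 (adjusted p = 0.011), a call that was lost under median centring, where 6 LEA genes were higher and 0 lower. LEA18 (−0.01) and AT2G44060 (0.22) did not pass.

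The genes reached their 24 h level along different courses. The 3, 6 and 12 h arrays were taken at other clock times and are set against the same early arrays, so their values are given only side by side. LTI30 stood at 2.02, 6.05 and 7.66 above the early mean (log2) at 3, 6 and 12 h and at 8.15 at 24 h. LEA4-5 stood at −0.01, 0.12 and 2.64 and then at 8.02, so most of its rise fell between 12 and 24 h. AT3G17520 was at 0.04, −0.05 and 0.11 before its 4.66 at 24 h. NDB2, an NADH dehydrogenase on the outer face of the inner mitochondrial membrane that bypasses the first proton pump, was at 0.15, 0.60 and 0.86 and then at 2.82, with 457 and 334 at 24 h and 37.4 to 61.2 early. Others stood higher at 12 h than at 24 h, times that differ in clock time and were not tested against each other. AT4G33980 was at 2.67, 6.12 and 6.70 and then at 4.65, and AT5G62360 was at 5.87, 7.17 and 7.58 and then at 6.63.

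Some genes that stood above the early arrays at 3 and 6 h did not do so at 24 h. STZ, a zinc finger repressor that responds to cold and salt, had 122 and 124 at 24 h, against 148 and 323 at 0.5 h and 545 and 495 at 1 h. Its log2 values against the early mean were 2.61, 2.06 and −0.29 at 3, 6 and 12 h, and at 24 h it was lower by −1.39 ± 0.22 (adjusted p = 6.2e-05). Both early times differed for this gene (1 h above 0.5 h by 1.21, adjusted p = 0.025), and in a fit of the 6 arrays with the early ones as 1 group the call was lost. PUB23, a U-box ligase that damps immune signalling, was at 2.14, 1.17 and −0.95 and then at −1.38 ± 0.29 (adjusted p = 0.00085). TET8, a tetraspanin, was at 1.55, 1.50 and −0.50 and then at −1.52 ± 0.22 (adjusted p = 2.9e-05), with 151 and 141 at 24 h and 280 to 667 early. The calmodulin-like gene CML38, at 4.31 and 3.74 at 3 and 6 h, had 36 and 41.3 at 24 h and 19.9 to 212 early (−0.62 ± 0.45, adjusted p = 0.3).

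**Figure D3:**
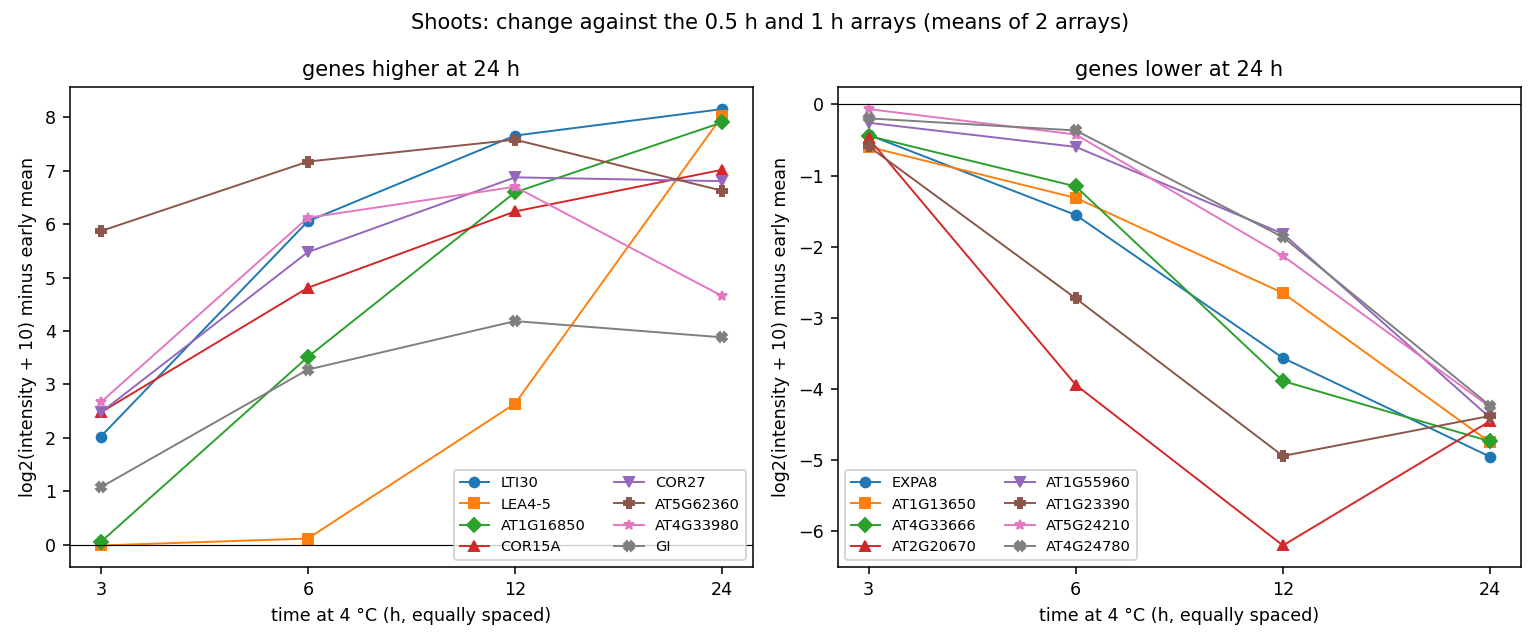
Difference between the mean log2(intensity + 10) at 3, 6, 12 and 24 h and the mean of the 0.5 h and 1 h groups, for 8 genes higher and 8 genes lower at 24 h; each point is a mean of 2 arrays and the time axis is spaced evenly. LEA4-5 lies near 0 until 6 h and reaches 8.02 at 24 h, while AT4G33980 has its highest value at 12 h (6.70) and AT2G20670 its lowest (−6.20).

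Of the circadian clock, 2 of 26 listed genes were measured and both were higher. GIGANTEA (GI), which normally peaks late in the day and promotes flowering, had 976 and 834 at 24 h, although all groups were sampled in the morning, against 36.8 and 53.6 at 0.5 h and 63.9 and 56.8 at 1 h. It was higher by 3.88 ± 0.14 (adjusted p = 1.3e-12). AT5G52660, on the list as a clock gene, had 226 and 269 at 24 h and 59.7 to 80.3 early (1.68 ± 0.11, adjusted p = 2.8e-09). Receptors of the growth hormone gibberellin rose as well: GID1A by 1.25 ± 0.12 and GID1B by 1.30 ± 0.12, while GID1C had 13.0 and 15.2 at 24 h and 15.8 to 30.9 early and did not pass. Of 9 MADS and other floral-time genes 3 were higher and 2 lower (5 and 0 under median centring), and 5 were under 30 on all arrays. SNZ, a repressor of flowering, was at 1.04 ± 0.11 and its relative SMZ at −0.64 ± 0.15. SMZ was dim, with 10.4 and 11.2 at 24 h and 19.4 to 28.3 early, and its call was lost under median centring.

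Of 5 tonoplast and SFP sugar carriers 2 were higher and 2 lower (3 and 2 under median centring). TMT2, which loads glucose and sucrose into the vacuole, had 596 and 534 at 24 h and 66.5 to 98.6 early, a rise of 2.68 ± 0.16 (adjusted p = 5.6e-10). TMT1 rose by 0.92 ± 0.11 and TMT3 (0.36, adjusted p = 0.075) did not pass. In contrast the monosaccharide carriers SFP1 and SFP2, fell by 1.54 ± 0.15 and by 1.63 ± 0.15. Of 14 SWEET sugar channels 3 were higher, 3 lower and 6 under an intensity of 30 on all arrays (5 and 3 under median centring), counts near the shares of all probe sets. SWEET1, a glucose channel, had 1376 and 1223 at 24 h and 193 to 251 early (2.54 ± 0.16, adjusted p = 2.1e-09), and SWEET13 and SWEET4 rose by 1.87 ± 0.29 and 1.60 ± 0.16. SWEET17 and SWEET16, which carry fructose and other sugars across the vacuole membrane, fell by 1.75 ± 0.22 and 1.21 ± 0.19. SWEET11, which exports sucrose for phloem loading, had 462 and 459 at 24 h and 870 to 1271 early, and fell by 1.12 ± 0.15 (adjusted p = 1.4e-05).

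Of 5 measured genes of starch turnover and soluble sugars, a list that also holds TMT2, 3 were higher and 1 lower (4 and 1 under median centring). PWD, which phosphorylates starch so that it can be broken down, had 458 and 454 at 24 h and 129 to 162 early (1.62 ± 0.12, adjusted p = 7.3e-09). DPE1, which rearranges short starch chains, rose by 0.70 ± 0.14. The large subunit of the starch-making enzyme, APL3, had 65.9 and 47.4 at 24 h and 27.8 to 50.6 early, so its groups overlapped. ATSPS4F, a sucrose phosphate synthase, had 228 and 184 at 24 h and 708 to 779 early, a fall of 1.80 ± 0.17 on the log2 scale (adjusted p = 2.5e-07).

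Protein folding changed member by member. In the endoplasmic reticulum, BZIP60, the transcription factor whose RNA is spliced when unfolded proteins build up, had 781 and 632 at 24 h and 74.7 to 112 early (2.84 ± 0.13, adjusted p = 4.4e-11). The array does not tell its spliced from its unspliced form here. Of 14 genes of folding in that compartment 4 were higher and 5 lower (5 and 4 under median centring), with a median of −0.09. Within one small family the signs differed: DER2.2, a derlin that helps to pull misfolded proteins out, rose by 1.41 ± 0.11, and DER2.1 fell by 1.15 ± 0.09. The J-domain helpers ATERDJ2A and ATERDJ2B moved apart likewise, by 0.68 ± 0.12 and −0.91 ± 0.12. The signs of these 4 genes held under all alternatives tried, as did those of every other called gene looked at. Among 13 cytosolic and other heat shock helpers 5 were higher and 3 lower (5 and 2 under median centring). Fes1A, a partner of HSP70, had 629 and 562 at 24 h and 77.0 to 97.8 early (2.63 ± 0.14, adjusted p = 1.7e-10), Hop1 and Hop2 rose by 1.05 ± 0.09 and 1.20 ± 0.10, and Hop3 fell by 0.95 ± 0.14.

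Most of the few measured genes that build ribosomes were higher. Of 21 listed ribosome biogenesis genes only 4 were measured, and all 4 rose, with a median of 1.26. PRH75, an RNA helicase of the nucleolus, had 565 and 651 at 24 h and 161 to 251 early (1.54 ± 0.17, adjusted p = 1.7e-06). AT5G14520 had 631 and 735 at 24 h and 155 to 272 early (1.70 ± 0.17). Of 7 genes of RNA polymerase I and ribosomal RNA processing, 5 were higher and 0 lower, and 7 were higher under median centring. NRPA1, the largest subunit of the polymerase that copies ribosomal DNA, had 144 and 152 at 24 h and 27.0 to 56.6 early (1.64 ± 0.15, adjusted p = 1.2e-07), NRPA2 rose by 0.94 ± 0.13, and YAO, a nucleolar protein, by 1.69 ± 0.12. At 3 and 6 h the median stood at −0.01 and 0.11 for the biogenesis genes and at −0.05 and 0.00 for the polymerase list. The 25S control on the same arrays, given above, did not separate 24 h from the early arrays.

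**Figure D4:**
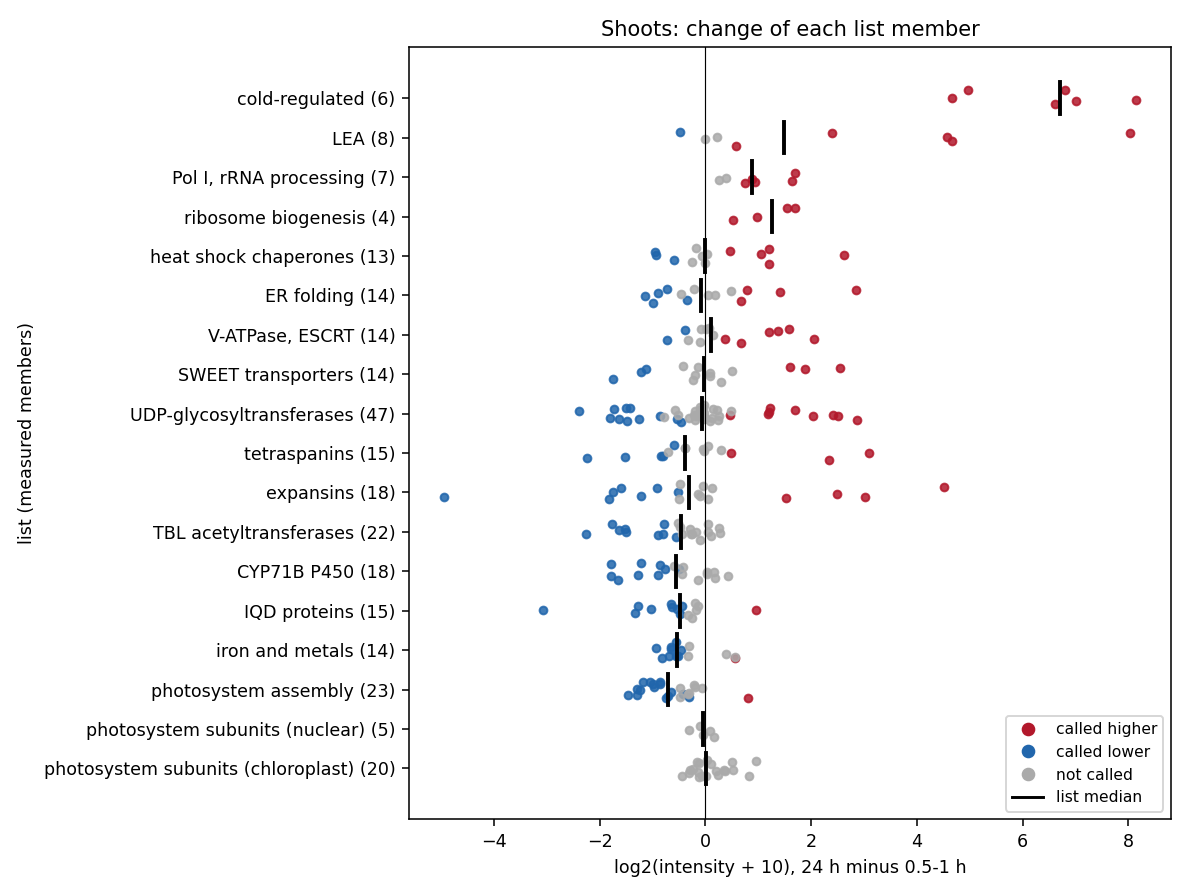
Log2 change between 24 h and the early arrays for each measured member of 18 lists; the number beside each list is its measured members, points are coloured by call and the black bar is the list median. Cold-regulated genes lie between 4.65 and 8.15, and photosystem assembly factors mostly below 0. Photosystem subunits have no call as deposited, and lie between −0.31 and 0.16 (nuclear) and between −0.44 and 0.95 (chloroplast).

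Of the 15 genes with the lowest change, 14 are known in the annotation by locus only. The exception, EXPA8, an expansin that loosens cell walls so that cells can enlarge, had 11.4 and 12 at 24 h, against 613 and 605 at 0.5 h and 629 and 821 at 1 h. It had the lowest change of the 15, at −4.95 ± 0.30 (adjusted p = 8e-10). AT1G13650 had 6.91 and 3.14 at 24 h and 350 to 470 early (−4.75 ± 0.15, adjusted p = 3.7e-13), and AT4G33666 had 17 and 25 at 24 h and 523 to 974 early (−4.74 ± 0.22). AT1G55960 had 54.2 and 93.3 at 24 h and 1507 to 2116 early (−4.41 ± 0.16, adjusted p = 1.7e-12), and AT1G23390 had 53.1 and 65.7 at 24 h and 1339 to 1587 early (−4.38 ± 0.19). In AT2G20670 the early arrays disagreed more, with 683 and 649 at 0.5 h and 1489 and 1032 at 1 h, and the 24 h arrays had 23.7 and 42.3 (−4.45 ± 0.28). It stood still lower at 12 h, at −6.20 against the early mean. The other 9 of the 15 had changes of −3.63 to −4.65.

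Cell wall families held genes that moved in opposite directions. Of 18 expansins, 4 were higher and 7 lower (4 and 6 under median centring), and 7 were under 30 on all arrays. The expansin-like genes EXLA1, EXLA2 and EXLA3, a subfamily whose wall-loosening activity has not been shown, rose together: EXLA1 had 2255 and 1986 at 24 h and 70.0 to 129 early (4.50 ± 0.22, adjusted p = 6.2e-11), EXLA2 rose by 3.02 ± 0.23 and EXLA3 by 2.49 ± 0.22. The probes of such close relatives can share signal. The true expansin EXPA16 rose by 1.53 ± 0.21, while EXPB1, EXLB1 and EXPB3 fell with EXPA8, by 1.83, 1.74 and 1.59. Of 10 xyloglucan-modifying enzymes 1 was higher and 3 lower, and 6 were under 30 on all arrays. EXGT-A3 had 118 and 170 at 24 h and 858 to 1198 early (−2.69 ± 0.21, adjusted p = 1.8e-08), XTH16 and XTH32 were lower by −1.45 ± 0.24 and −0.73 ± 0.17, and XTH19 was higher by 1.72 ± 0.23. Of 22 trichome birefringence-like (TBL) proteins, which add acetyl groups to wall polymers, 0 were higher and 9 lower (1 and 8 under median centring), led by TBL26, with 45.9 and 42.6 at 24 h and 236 to 285 early (−2.26 ± 0.12, adjusted p = 1.9e-10). The median of these 22 was −0.46 against −0.14 over all probe sets, and 10 of them were under 30 on all arrays. Of 15 endoglucanases of family GH9, 3 were lower as deposited, GH9B8, GH9B12 and GH9C3, by 0.53 to 0.57, and 0 were lower under median centring. Of the 15, 10 were under 30 on all arrays. GH9B12 had 6.64 and 5.62 at 24 h and 8.33 to 18.9 early, and GH9C3 had 7.79 and 1.25 at 24 h and 7.90 to 17.8 early.

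Other genes of growth and of the skeleton that guides it also changed. IQD proteins bind calmodulin and link it to microtubules. Of 15 measured, 1 was higher and 9 lower (1 and 5 under median centring), and IQD24 fell the furthest, with 14.5 and 14.4 at 24 h and 177 to 209 early (−3.07 ± 0.13, adjusted p = 1.1e-11). IQD23 was the 1 that rose, by 0.96 ± 0.14. TUB9, a beta-tubulin, had 1513 and 1498 at 24 h and 299 to 422 early (2.07 ± 0.14, adjusted p = 3.8e-09), and of 7 tubulins 3 were higher and 0 lower. STOMAGEN, a secreted peptide that promotes the formation of stomata, had 64.3 and 60.9 at 24 h and 308 to 373 early (−2.22 ± 0.11, adjusted p = 1.2e-10). The stomatal regulator FAMA, listed as FMA, had 56.6 and 74.2 at 24 h and 65.3 to 129 early, and did not pass. Of 17 genes of auxin synthesis, conjugation and signalling 0 were higher and 3 lower (1 and 3 under median centring), and 10 were under 30 on all arrays; IAGLU, which ties auxin to glucose, was at −2.80 ± 0.19 (20.2 and 18.3 at 24 h, 170 to 220 early). Of 7 Aux/IAA repressors of auxin response 2 were higher and 1 lower (3 and 1 under median centring). IAA29 and IAA30 rose by 1.59 ± 0.27 and 1.08 ± 0.17, and IAA18 fell by 1.87 ± 0.24.

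Photosynthesis gave different counts by list. Only 3 of 20 listed Calvin cycle genes and 5 of 29 listed nuclear subunits of the photosystems and electron transport were measured. None of those measured passed in shoots under any of the 3 scalings, and the rest of both lists was not seen. RCA changed by 0.01 ± 0.21, the phosphoribulokinase PRK by −0.17 ± 0.32 and the sedoheptulose bisphosphatase SBPASE by −0.41 ± 0.19. Of 23 proteins that assemble and adjust the photosystems, 1 was higher and 15 lower, with a median of −0.72 (1 and 11 under median centring, median −0.47). CRR42, needed for the NDH complex of cyclic electron flow, had 41.4 and 48.3 at 24 h and 118 to 165 early (−1.47 ± 0.12, adjusted p = 5.5e-08). LPA19, which acts in the assembly of photosystem II, and the assembly factor LPA2 fell by 1.30 ± 0.17 and 1.24 ± 0.15, and the thylakoid calcium sensor CaS by 1.30 ± 0.23. PIFI, a factor of the chlororespiratory NDH path, rose by 0.80 ± 0.16. Of 21 listed genes of the light-harvesting antenna 3 were measured, all of them LHCB4 genes. LHCB4.2 had 1256 and 1655 at 24 h and 4589 to 5779 early (−1.82 ± 0.24, adjusted p = 9.7e-06), and LHCB4.3 was lower by −0.98 ± 0.19. LHCB4.1 had 4532 and 5055 at 24 h, overlapping no early array (5201 to 8351) but missing the threshold (−0.34 ± 0.23, adjusted p = 0.27).

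Chlorophyll synthesis gave 1 gene higher and 3 lower of 6 (1 and 1 under median centring). PORB, which makes chlorophyllide in light, had 656 and 718 at 24 h and 178 to 346 early (1.32 ± 0.33, adjusted p = 0.004), and CHLM, the magnesium protoporphyrin methyltransferase, had 841 and 853 at 24 h and 1637 to 1985 early (−1.10 ± 0.13, adjusted p = 2.7e-06). Of 61 genes encoded in the chloroplast genome, 0 were higher and 2 lower, petA at −0.76 ± 0.28 and rpl16 at −0.91 ± 0.27, with a median of −0.04 and changes between −0.91 and 0.95. Under median centring both calls were lost, and 2 photosystem genes, 1 NDH gene and 1 gene of the cytochrome complex or ATP synthase were called higher. The direction turned with the early time: against the 0.5 h arrays alone 9 of the 61 were higher and 0 lower, and against the 1 h arrays alone 0 were higher and 14 lower. Without replicate 1 at 1 h, 2 were higher and 3 lower. These transcripts were uneven within the early hour: 13 of the 61 were higher and 0 lower at 1 h than at 0.5 h, with a median difference of 0.35. The 25S control was also higher at 1 h than at 0.5 h, and its part in these values was not tested.

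Single genes of specialised metabolism changed strongly in either direction. UDP-glycosyltransferases attach sugars to hormones and pigments. Of 47 measured, 9 were higher and 11 lower (13 and 9 under median centring), near the 14.1% and 26.3% of all probe sets, and 22 were under 30 on all arrays. Among those that act on flavonols, UGT78D2 had 867 and 753 at 24 h and 168 to 213 early (2.03 ± 0.12, adjusted p = 6.9e-10), UGT78D3 had 74.9 and 70.5 at 24 h and 0.865 to 1.92 early (2.86 ± 0.11), and UGT78D1 fell by 1.48 ± 0.16. UGT84A3 and UGT72B3, which act on phenylpropanoids, rose by 2.51 ± 0.21 and 2.42 ± 0.21. UGT85A2 (−2.39 ± 0.25) and UGT88A1 (−1.81 ± 0.26) were the lowest. UGT74B1, which acts in glucosinolate synthesis, fell by 1.43 ± 0.27 and BCAT4, the first step of methionine chain elongation for these compounds, by 0.87 ± 0.19. In the anthocyanin branch DFR had 22.8 and 21.9 at 24 h and 34.4 to 87.4 early (−1.10 ± 0.42, adjusted p = 0.044). That call was lost under median centring and under quantile normalization. DFR, UGT78D2 and UGT78D1 are on the list of phenylpropanoid and flavonoid synthesis, where 1 of 6 measured was higher and 3 lower (1 and 1 under median centring). Also on it, UF3GT (−0.36, adjusted p = 0.31) and CHIL (−0.16) did not pass, and AT4G14090 (−0.95 ± 0.36) was at most 32.1 on any of the 6 arrays. Of 18 CYP71B cytochromes P450, 0 were higher and 9 lower (1 and 8 under median centring), with a median of −0.55, and 8 were under 30 on all arrays. Of 21 beta-glucosidases 3 were higher and 6 lower (5 and 2 under median centring), as deposited near the shares of all probe sets. Of the 21, 12 were under 30 on all arrays. BGLU25 had 900 and 768 at 24 h and 39.8 to 57.1 early (3.87 ± 0.16, adjusted p = 1e-11), and BGLU40 had 71.9 and 81.5 at 24 h and 306 to 499 early (−2.29 ± 0.20).

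Membrane traffic and protein turnover held large rises and falls of single members. Of 14 V-ATPase and ESCRT genes, 6 were higher and 2 lower (8 and 1 under median centring). ESCRT complexes sort membrane proteins towards the vacuole, and VPS20.1 had 221 and 161 at 24 h and 36.6 to 41.1 early (2.05 ± 0.16, adjusted p = 2.4e-08). VPS2.1 and VPS46.2 rose by 1.58 ± 0.11 and 1.37 ± 0.11, while VPS2.2, a relative of VPS2.1, fell by 0.72 ± 0.14. Among 15 tetraspanins, proteins that organise membrane patches, 3 were higher and 5 lower (4 and 4 under median centring), again near the shares of all probe sets. Of the 15, 8 were under 30 on all arrays. TET3 had 799 and 780 at 24 h and 69.3 to 90.1 early (3.09 ± 0.13, adjusted p = 1.5e-11), TET2 rose by 2.34 ± 0.18, and TET10 had 12.7 and 13.2 at 24 h and 92.9 to 103 early (−2.24 ± 0.11). Of 9 ATG8 proteins, which tag autophagosomes, 3 were higher and 2 lower, with ATG8D and APG8A each at 0.97 and ATG8E and ATG8F at −1.41 ± 0.28 and −1.14 ± 0.21. Of 9 U-box ligases 1, PUB19, was higher and 3 lower (2 and 2 under median centring), and PUB26 had 10.6 and 4.58 at 24 h and 56.2 to 168 early (−2.56 ± 0.21, adjusted p = 3.7e-08).

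Among genes of metal supply and of jasmonate, the count of lower ones depended on the scaling. Of 14 iron and metal genes, 1 was higher and 9 lower (3 and 4 under median centring), with ZIP6, a metal carrier, at −0.94 ± 0.14 and PYE, a regulator of the iron deficiency response, at −0.82 ± 0.11. The 1 that rose was bZIP19, a regulator of zinc uptake, at 0.56 ± 0.12. Of 12 jasmonate and ethylene genes, 1 was higher and 5 lower (1 and 3 under median centring). ORA47, which activates jasmonate synthesis, had 25.5 and 18.8 at 24 h and 48.4 to 115 early (−1.46 ± 0.18, adjusted p = 3.4e-06), and EIN3, the central regulator of ethylene response, rose by 0.40 ± 0.10 (adjusted p = 0.0033).

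The remaining lists held mostly small changes. Of 6 genes of ascorbate synthesis and recycling 0 were higher and 4 lower (0 and 1 under median centring), with ATMDAR2, which regenerates ascorbate, at −0.67 ± 0.13. Both measured photorespiration genes that passed, HPR and AT1G11860, had changes of −0.75 and −0.50, and neither call held under median centring. Of 29 serine carboxypeptidase-like proteins 2 were higher and 8 lower (3 and 7 under median centring), and 16 were under 30 on all arrays. The lower count was near the 26.3% of all probe sets, and the higher count was below their 14.1%. SCPL49 had 587 and 535 at 24 h and 84.9 to 130 early (2.27 ± 0.14, adjusted p = 1e-09), and scpl50 had 6.09 and 10.9 at 24 h and 48.0 to 55.8 early (−1.75 ± 0.15). Of 11 tau glutathione transferases, which detoxify reactive compounds, 1 was higher and 4 lower (1 and 3 under median centring), with GSTU16 at 0.96 ± 0.16 and GSTU27 at −2.23 ± 0.17. Of the 11, 6 were under 30 on all arrays. Among 9 histones and histone chaperones 0 were higher and 3 lower (1 and 2 under median centring), HON4, a linker histone, at −1.06 ± 0.13. Of 6 cytokinin response regulators 0 were higher and 2 lower (1 and 2 under median centring), ARR15 and RR16, by −1.28 ± 0.20 and −1.41 ± 0.23. Of the 6, 4 were under 30 on all arrays, and RR16 was dim, with 8.30 and 5.62 at 24 h and 20.6 to 45.6 early. XERICO, a RING protein that raises abscisic acid levels, was higher by 0.92 ± 0.17, with 309 and 216 at 24 h and 103 to 170 early.

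The same contrast in roots, from other arrays, showed where the shoot changes differed. In roots 2890 probe sets were higher (12.7%) and 5901 lower (25.9%). Of the shoot calls, 1399 higher ones were also higher in roots, which is 43.5% of the shoot list and 48.4% of the root list, and 3136 lower ones were also lower, 52.3% and 53.1% of the lists. In the opposite direction in roots went 217 of the higher and 312 of the lower ones. The change itself differed between shoots and roots at 6134 probe sets (27%). All 15 of the highest shoot genes also rose in roots, but LTI30 by 2.75 there (shoots minus roots 5.40 ± 0.27, adjusted p = 3.1e-09) and AT1G20030 by 0.66 (5.37, adjusted p = 2.1e-08). COR15A rose by 7.34 in roots, and its difference between tissues (−0.32, adjusted p = 0.69) did not pass, nor did those of COR15B (0.73) and AT5G62360 (0.25). EXLA2 and EXLA3 rose more in roots, by 4.44 and 4.04 (differences −1.42 and −1.56, adjusted p = 0.0036 and 0.0011). Of the 15 lowest shoot genes 4 also fell in roots, EXPA8, AT2G36950, AT4G24780 and AT5G19120, and 2 rose there, AT2G20670 by 0.91 and AT1G23390 by 0.74. The 5 measured nuclear subunits of the photosystems and electron transport, which did not pass in shoots, were all lower in roots.

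**Figure D5:**
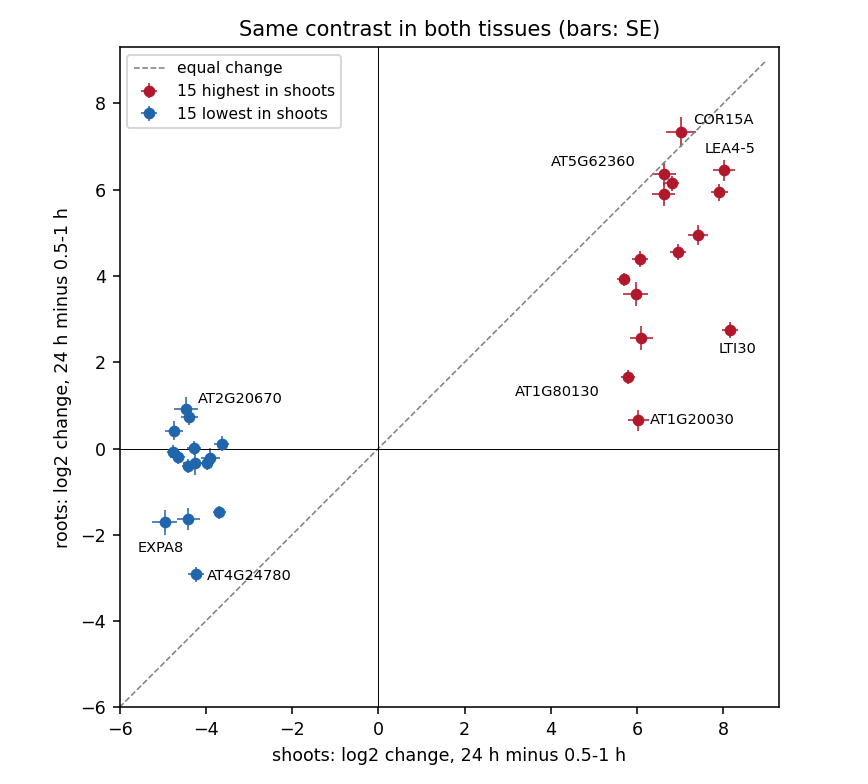
Log2 change between 24 h and the early arrays in shoots (horizontal) and in roots (vertical) for the 15 highest and 15 lowest genes of the shoot comparison, with standard errors; the dashed line marks equal change. The highest genes lie between 0.66 and 7.34 in roots, with AT5G62360 and COR15A close to the line and LTI30 and AT1G20030 far from it, and the lowest genes lie between −2.92 and 0.91 in roots.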

How the data were processed

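Total RNA from shoots was read on single-colour ATH1 arrays, 2 per time. The authors deposited 1 linear intensity per probe set and array, which the submitters' processing notes credit to MAS5, and these values were used without further normalization; detection calls were not used. After 64 control probe sets were left out, log2(intensity + 10) of 22746 probe sets was fitted with limma 3.58.1 in R 4.3.3, with 1 mean for each of the 12 groups of tissue and time over all 24 arrays (12 residual degrees of freedom). The contrast was 24 h minus the mean of the 0.5 h and 1 h groups. P-values are from limma, 2-sided and adjusted by Benjamini-Hochberg over all probe sets, and the steps were tested on simulated data. The number of arrays limits the precision.

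In the platform annotation 13513 probe sets have a single gene, 503 have several genes and 8730 have no gene. Only the first kind was named, with the brightest probe set standing for a gene, and current symbols were matched by gene ID for 13436. The samples compared, the members and the gene lists were chosen with earlier results of these data known. After values were seen, 6 list members were removed on role alone (ATCRT1, MAC3A, RH39, FER, AIM1 and LOV1) and EXGT-A3 was added. Genes named are the 15 highest and 15 lowest called, and all measured clock, cold-regulated and marker genes. Others were drawn from up to 4 called members at each end of a list and from lists with at most 8 measured. Not every gene open to naming by that rule is named. Alternatives changed the pseudocount, scaling, filter, baseline, arrays in the fit, prior, replicate block, demand on single arrays and size of change, or left out 1 array.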

Additional observations from a re-analysis of the deposited data

Results flagged for a closer look

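The change at 24 h differed between shoots and roots for 27 of the 30 genes with the highest and lowest shoot changes, by the test of the difference in the limma fit (adjusted p between 1.9e-09 and 0.046). Since these genes were ranked by their shoot change, a smaller change in roots is favoured by the choice. Shoots minus roots was, on the log2 scale, 5.40 for LTI30, 5.37 for AT1G20030, 4.13 for AT1G80130 and 3.54 for AT3G04010. It was 2.46 for AT1G51090, 2.39 for AT1G11210, 2.38 for PUB19, 1.97 for AT1G16850, 1.76 for AT1G64890, 1.68 for AT4G30650, 1.57 for LEA4-5 and 0.66 for COR27. Among the genes that fell in shoots, the difference was −5.37 for AT2G20670, −5.15 for AT4G33666, −5.12 for AT1G23390, −4.67 for AT1G13650, −4.46 for AT2G34620, −4.29 for AT2G27420 and −4.01 for AT1G55960. It was −3.92 for AT5G24210, −3.75 for AT5G21100, −3.68 for AT2G03750, −3.64 for AT5G48490, −3.24 for EXPA8, −2.77 for AT2G36950, −2.21 for AT5G19120 and −1.31 for AT4G24780.

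In 17 of 207 genes looked at, 1 of the 4 early arrays stood far from the other 3, where chance gives about 5% of groups by the criterion used. Replicate 1 at 1 h was the high array for CaS (3349), TBL26 (285), ATMDAR2 (205), AT2G36950 (632), WRKY53 (44.0) and GH9C3 (17.8), and the low array for TET3 (69.3), CYP71B28 (93.5) and ZIP6 (35.2). Replicate 2 at 1 h was high for EXLA1 (129), EXPA8 (821) and SFP1 (306) and low for AT2G34620 (642) and GSTU18 (283). Replicate 1 at 0.5 h was high for PDC2 (68.7) and XTH19 (29.0) and low for PUB19 (16.5). WRKY53 did not pass. The others were called, and the rule for a call itself demands both 24 h arrays beyond all early values.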

How the results depend on the processing

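The scaling of the arrays set the balance of calls: median centring gave 5161 higher and 3578 lower, against 3217 and 5991 as deposited. A demand for at least 2-fold left 1443 higher and 1980 lower as deposited, 1572 and 1510 when quantile-normalized, 2013 and 1259 when centred on medians, and 1486 and 2010 against the 1 h arrays alone (these last 3 settings were chosen after seeing the data). Under the other settings the counts stayed within 1.5 times, from 2611 to 3979 higher and from 4618 to 6449 lower. Leaving out 1 array gave 2763 to 3316 higher and 4873 to 6471 lower. The count of probe sets whose change differed between shoots and roots was 6134, from 5287 to 6821 under other settings added after seeing the data, and from 4815 to 6628 with 1 array left out. With the replicate number as a block the counts were 3185 higher, 5942 lower and 5965 differing between tissues. Deviations of same-numbered arrays correlated with r of 0.18 between 0.5 h and 1 h, −0.07 between 0.5 h and 24 h and −0.08 between 1 h and 24 h over 16073 probe sets, so the numbers were not taken to pair the samples. Over 207 genes and 19 settings, 3712 values kept their side of the threshold, 199 lost the call and 17 gained one. The sign turned in 0 values of called genes and in 18 values of 6 genes that were not called (RCA, PRK, LEA18, CHIL, WRKY53 and AT4G24450). Of the lost calls 55 came with the demand for 2-fold and 20 with median centring, among them petA, rpl16, HEMB1, HPR, DFR and SMZ. The cause was not tested. Dim genes are limited by background, and 1129 called probe sets were under 30 on all 6 arrays.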

Other observations

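Several other named genes changed by large amounts in shoots; they belong to none of the lists and were picked after their values were seen. SERPIN1, an inhibitor of proteases, had 2184 and 2370 at 24 h and 76.5 to 104 on the early arrays, a rise of 4.47 ± 0.13 on the log2 scale (SE, limma adjusted p = 1e-13). BETA-VPE, a processing protease of the vacuole, had 786 and 677 at 24 h and 20.2 to 38.8 early (4.26 ± 0.19, adjusted p = 1.5e-11), and stood at 0.05, 1.14 and 3.66 at 3, 6 and 12 h. CYS1, an inhibitor of cysteine proteases, had 2671 and 1969 at 24 h and 239 to 550 early (2.45 ± 0.26).

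In energy metabolism, PDC2, a pyruvate decarboxylase of fermentation, had 764 and 635 at 24 h, and 68.7, 35.7, 35.2 and 35.2 on the early arrays (3.76 ± 0.24, adjusted p = 1.5e-09). SDH2-1, a subunit of succinate dehydrogenase, had 1027 and 956 at 24 h and 219 to 251 early (2.02 ± 0.10, adjusted p = 5.3e-11). TIL, a temperature-induced lipocalin of the plasma membrane, had 5308 and 5270 at 24 h and 712 to 796 early (2.80 ± 0.16, adjusted p = 3.4e-10), and rose in roots by 2.39. SAT32, named for salt tolerance, had 833 and 848 at 24 h and 75.8 to 90.2 early (3.18 ± 0.14) and rose in roots by 3.11. For TIL and SAT32 the difference between shoots and roots did not pass (adjusted p = 0.19 and 0.85).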
